A study of Mus musculus with 18 samples.

Results

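Brown and thermogenic adipocyte genes were followed as 9 genes chosen by name, Ppargc1a, Prdm16, Ebf2, Ucp1, Cox8b, Cox7a1, Cidea, Elovl3 and Dio2. Of these, 6 were listed in at least 1 of the 7 deposited comparison tables, which together held 15194 genes. Dio2, Prdm16 and Ucp1 were in no table and have no value here. The 18 RNA-seq libraries, 3 in each of 6 groups, came from the mouse preadipocyte line 3T3-L1, fibroblasts that turn into adipocytes in culture. Undifferentiated cells (J0, labelled untreated) were control (CTL), MLKL-/- or RIPK3-/-, and differentiated cells (J7) had the same 3 genotypes. MLKL is the pseudokinase that breaks the plasma membrane in necroptosis, a lytic form of cell death, and the kinase RIPK3 switches it on. For the 6 differentiated knockout libraries the titles used here as group names go against the genotype field, which gives the other knockout. The knockout named in every J7 result therefore rests on the titles. So do both J7 against J0 comparisons of a knockout and the interaction terms. The labels name no differentiation agent, no culture or batch for a library and no number of clones per knockout, so each p-value reflects the spread between libraries, which may be technical.

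Brown and beige adipocytes burn fuel to make heat. The uncoupling protein Ucp1 lets protons back into the mitochondrial matrix without making ATP, the coactivator PGC-1alpha (Ppargc1a) raises mitochondrial genes after adrenergic stimulation, and Ebf2 and Prdm16 act in the nucleus to set brown identity. Cox8b and Cox7a1 are subunit isoforms of cytochrome c oxidase found in heart, skeletal muscle and brown fat, where they replace the widely used Cox8a and Cox7a2. Cidea sits on lipid droplets, Elovl3 lengthens saturated fatty acids, and Dio2 activates thyroid hormone. 3T3-L1 cells are usually taken as a model of white adipocytes.

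The promoters of 3 members are shown because all 3 were higher in J7_RIPK3 than in J7_CTL, and because Ppargc1a fell during differentiation while the others rose. They come from RefSeq on GRCm38.p6, the build named mm10 in the submitters' notes, and run from 250 bases before to 50 bases after the annotated start. Of the 6 listed members, all higher in J7_RIPK3 than in J7_CTL, 3 are shown. Cidea was not looked up, and Ebf2 and Elovl3 were not found by symbol. Cox8b and Cox7a1 are both on chromosome 7, on opposite strands. Capitals mark a match to TGACG, the core of the cAMP response element, which reads CGTCA on the other strand, or to the TATAAA box.
Ppargc1a, chr5:51567676-51567975, minus strand: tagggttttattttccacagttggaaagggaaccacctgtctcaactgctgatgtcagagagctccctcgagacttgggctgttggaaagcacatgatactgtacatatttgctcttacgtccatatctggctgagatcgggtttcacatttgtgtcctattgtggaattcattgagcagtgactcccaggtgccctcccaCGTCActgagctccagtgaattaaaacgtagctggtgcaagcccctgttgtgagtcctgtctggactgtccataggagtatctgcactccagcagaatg
Cox7a1, chr7:30183921-30184220, plus strand: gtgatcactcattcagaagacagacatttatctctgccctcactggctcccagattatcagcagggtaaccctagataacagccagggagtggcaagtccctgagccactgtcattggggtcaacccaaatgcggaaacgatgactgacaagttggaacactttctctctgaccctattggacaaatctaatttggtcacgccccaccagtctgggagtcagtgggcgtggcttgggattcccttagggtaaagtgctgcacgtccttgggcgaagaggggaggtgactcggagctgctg
Cox8b, chr7:140900397-140900696, minus strand: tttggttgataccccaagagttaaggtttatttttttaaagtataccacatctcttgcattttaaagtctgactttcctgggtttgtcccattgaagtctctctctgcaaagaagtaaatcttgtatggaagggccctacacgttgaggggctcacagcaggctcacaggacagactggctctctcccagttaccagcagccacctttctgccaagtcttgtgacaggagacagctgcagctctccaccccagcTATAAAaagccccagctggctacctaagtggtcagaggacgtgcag

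Both strands were searched for TGACG, for the full palindrome built on it, for AGGTCA (bound by nuclear receptors such as PPARgamma), for 2 copies of AGGTCA spaced by 1 base, and for TATAAA. The Ppargc1a window held TGACG on the opposite strand, from 49 to 45 bases before the start, and no other of these motifs. The Cox8b window held TATAAA, 4 to 9 bases after the annotated start, and the Cox7a1 window held none of the 5. Among 32851 promoters of the same length, 20.8% held TGACG, 1.79% the full palindrome, 16.3% AGGTCA, 0.0396% its spaced repeat and 13.6% TATAAA. The palindrome contains TGACG and the repeat contains AGGTCA, so these shares overlap, and TATAAA was added after the Cox8b window had been read. No finding on a factor's binding follows from these letters.

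Library totals ran from 20.2 to 36.9 M reads, so 1 read was worth 0.0271 to 0.0495 CPM, reads per 1 M reads of the library total. CPM is the unit of every level below unless FPKM is named. Differentiation was read from 10 adipocyte markers, among them Adipoq and Fabp4, whose summed level was 44.9 to 86.9 CPM in the 9 J0 libraries. It was 14791 to 15533 CPM in J7_CTL and 15237 to 17069 CPM in J7_RIPK3. In J7_MLKL it was 1745, 2134 and 4338 CPM, with 10 of 10 markers called lower than in J7_CTL. Replicate 3 of J7_MLKL and replicate 2 of J0_MLKL stood apart from the other 2 libraries of their groups, with a chi-square per gene of 202 to 212 and 47.4 to 53.8 against 2.76 to 7.62 in all other pairs, and results that rest on them are given with and without them. Mlkl was still read in J0_MLKL (7.19 to 9.72 CPM against 18.2 to 19.8 in J0_CTL) and J7_MLKL (13.9 to 16.4 against 25.4 to 27.5 in J7_CTL). Ripk3 was read in J0_RIPK3 at 14.7 to 17.3 CPM against 16.8 to 19.6 in J0_CTL, and in J7_RIPK3 at 10.2 to 11.7 CPM against 17.5 to 19.2 in J7_CTL. In the MLKL groups Ripk3 was also low, at 5.73 to 9.44 CPM in J0_MLKL and 7.73 to 11.99 CPM in J7_MLKL, while Mlkl was at 26.5 to 32.3 CPM in J7_RIPK3. Low Mlkl beside low Ripk3 was therefore seen in J0_MLKL and in the libraries titled J7_MLKL.

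In differentiated control cells all 6 listed members were detectable. On the length-scaled FPKM scale of the authors, the group means in J7_CTL were 7.54 for Cox8b, 3.99 for Elovl3, 3.75 for Cox7a1, 2.11 for Cidea, 2.11 for Ebf2 and 0.461 for Ppargc1a. In J7_RIPK3 the order changed, with Cidea (56.0 FPKM) and Cox8b (50.8 FPKM) above Elovl3 (14.0), Cox7a1 (10.5), Ebf2 (3.37) and Ppargc1a (1.32). In J7_MLKL, Cox8b had 11.2 FPKM, Ppargc1a 1.65 and Ebf2 0.413, while Cidea (0.0459) and Elovl3 (0.00844) were near 0. Without replicate 3 of J7_MLKL the mean of Cox8b was 4.15 FPKM, that of Ppargc1a 1.99 and that of Ebf2 0.497. Whether fewer cells expressed a gene or each cell held less of its RNA cannot be told apart in these bulk libraries.

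**Figure D1:**
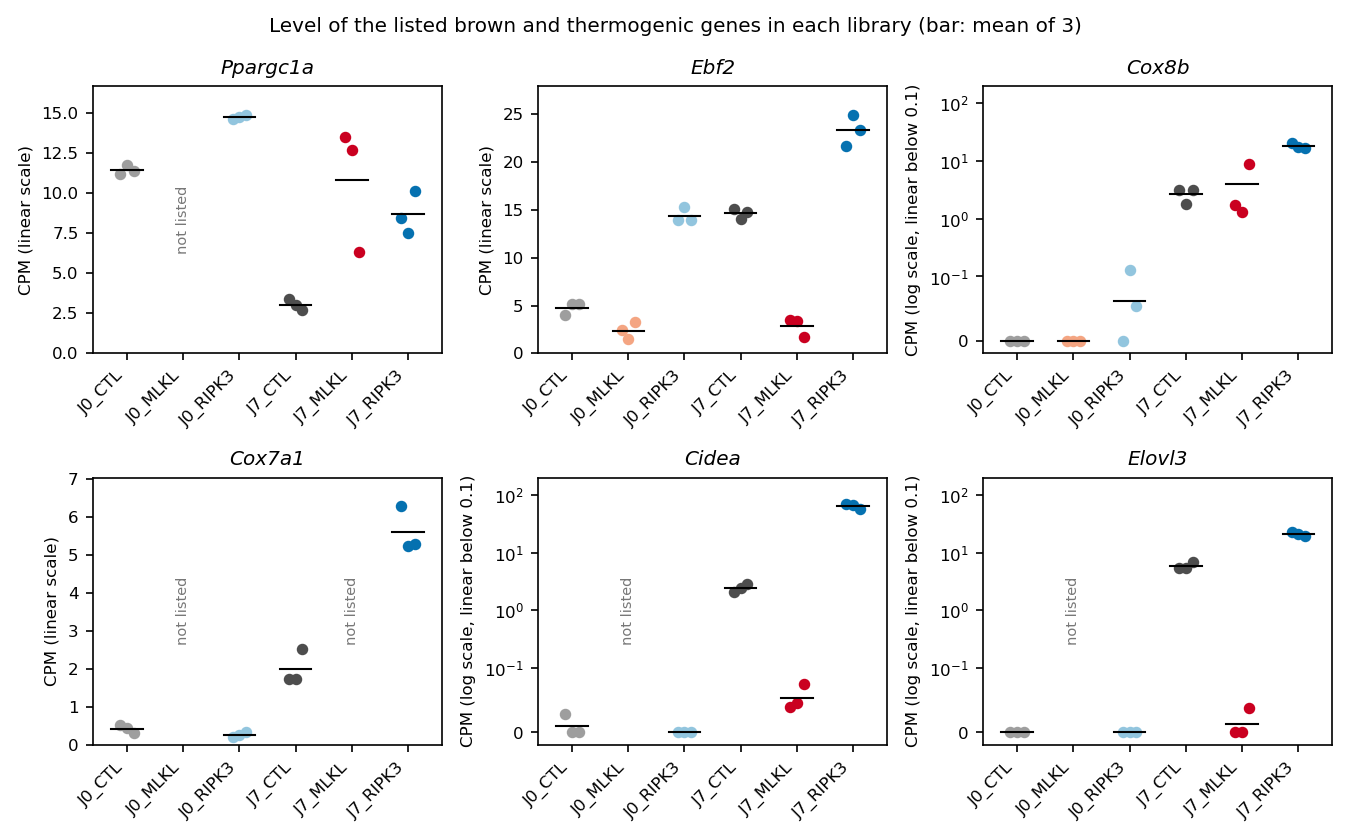
Level of each listed member in every library, in CPM, by group, with a bar at the mean of 3 libraries. Ppargc1a, Ebf2 and Cox7a1 are on linear axes and Cox8b, Cidea and Elovl3 on log axes that turn linear below 0.1 CPM. Cidea spans 0 to 70.6 CPM. All 6 genes are higher in every J7_RIPK3 library than in every J7_CTL library, where 29.6% of 11170 genes were called higher. The share of all genes whose libraries separate in this way was not computed.

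Tests were edgeR quasi-likelihood F tests with Benjamini-Hochberg adjustment over all genes tested in a comparison, and a gene was called at an adjusted p under 0.05. Log2 fold changes carry their standard error (SE), and folds are ratios of pooled reads over pooled totals. The tables keep only genes that passed the authors' own test, so a member listed in the table of a comparison had already differed there, and counts of called members have to be read against a high share of calls over all genes. In J7_CTL against J0_CTL, 6 of 6 members were called, 5 higher and 1 lower, where 95.9% of 12055 genes were called (48.2% higher and 47.6% lower). Between J7_RIPK3 and J7_CTL, 6 of 6 were called higher, where 59.1% of 11170 genes were called, 29.6% higher and 29.5% lower by the same rule. All 6 stood in the authors' table of that comparison. Of the 10 adipocyte markers, 6 were higher and 1 lower there, with a median log2 fold change of 0.12, and their part in the member differences was not tested.

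Ppargc1a (ENSMUSG00000029167, chromosome 5, 51454250 to 51567726 on the minus strand, mm10) encodes the coactivator PGC-1alpha. It was the member that fell during differentiation. Undifferentiated control libraries had 11.2, 11.8 and 11.4 CPM (389, 343 and 282 reads) and J7_CTL libraries 3.40, 3.00 and 2.72 CPM (82, 74 and 73 reads). The groups did not overlap, and the level fell 3.77-fold (log2 -1.96 ± 0.12, edgeR adjusted p 8.87e-14). From J0_RIPK3 to J7_RIPK3 it went from 14.6, 14.8 and 14.9 CPM to 8.46, 7.53 and 10.1 CPM, again without overlap, 1.68-fold lower (log2 -0.78 ± 0.10, adjusted p 4.70e-07). The decrease was smaller in RIPK3-/- than in CTL cells by the interaction term (log2 1.20 ± 0.16, edgeR adjusted p 7.36e-07). In that test 3 of 6 members were called, 2 higher and 1 lower, where 39% of 11027 genes were called (18.4% higher and 20.6% lower).

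Within a stage, Ppargc1a was higher than in CTL in J0_RIPK3, J7_RIPK3 and J7_MLKL. It stood in the authors' table of each of these comparisons, so it had already passed their test there. J0_RIPK3 exceeded J0_CTL 1.29-fold (log2 0.35 ± 0.08, edgeR adjusted p 0.000645), where 55.8% of 11044 genes were called and 2 of 2 members tested were called higher, beside 28.3% of genes called higher and 27.4% lower. J7_RIPK3 exceeded J7_CTL 2.91-fold (log2 1.54 ± 0.15, adjusted p 7.97e-09). The 3 J7_MLKL libraries had 13.5, 12.7 and 6.32 CPM, all above the highest J7_CTL value. Their pooled level was 3.54-fold higher than that of J7_CTL (log2 1.93 ± 0.31, edgeR adjusted p 0.00121). Replicate 3 had the lowest CPM of the group, and without it the difference was 2.18 on the log2 scale. Between J7_MLKL and J7_RIPK3 the log2 difference was 0.48 ± 0.30 (edgeR adjusted p 0.165), and 0.73 (adjusted p 5.22e-06) without replicate 3 of J7_MLKL. By mean level the order of groups was J0_RIPK3, J0_CTL, J7_MLKL, J7_RIPK3 and J7_CTL, in which J7_MLKL overlapped both of its neighbours. Ppargc1a was not listed in J0_MLKL.

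The related coactivator Ppargc1b, added to this account after its values were seen, took the opposite course. It rose 63.5-fold between J0_CTL and J7_CTL (log2 5.93, edgeR adjusted p 1.82e-23), from 0.553 to 35.8 CPM on average. In FPKM, Ppargc1a stood at 1277 ± 220% (SD, n = 3) of Ppargc1b in J0_CTL and at 5.16 ± 0.656% in J7_CTL. The ratio was 12.9 ± 1.78% in J7_RIPK3 and 111 ± 28.6% in J7_MLKL, where Ppargc1b was 5.73-fold lower than in J7_CTL (log2 -2.37, adjusted p 0.00152).

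Ebf2 (ENSMUSG00000022053, chromosome 14, 67233292 to 67430918, mm10), an early B-cell factor that opens brown fat genes, was listed in all 18 libraries. It had 4.05, 5.18 and 5.17 CPM in J0_CTL and 15.1, 14.0 and 14.8 CPM in J7_CTL, a 3.09-fold rise without overlap (log2 1.58 ± 0.11, edgeR adjusted p 7.96e-13). J0_RIPK3 libraries already had 13.9, 15.3 and 13.9 CPM before differentiation, 3.02-fold above J0_CTL (log2 1.57 ± 0.11, adjusted p 1.79e-11), and they overlapped J7_CTL. Differentiation took the RIPK3-/- level further, to 21.7, 24.96 and 23.3 CPM (log2 0.67 ± 0.08, adjusted p 6.98e-08). That rise was smaller than in CTL by the interaction term (log2 -0.88 ± 0.13, edgeR adjusted p 3.80e-06). At J7 the RIPK3-/- group remained 1.59-fold above CTL (log2 0.69 ± 0.08, adjusted p 9.64e-08).

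In MLKL-/- cells Ebf2 was lower at both stages. J0_MLKL had 2.46, 1.48 and 3.25 CPM, 2.00-fold below J0_CTL (log2 -0.97 ± 0.27, edgeR adjusted p 0.00958), the 1 member tested in a comparison where 83.6% of 3824 genes were called 40.4% higher and 43.2% lower. J7_MLKL had 3.48, 3.41 and 1.70 CPM, 5.18-fold below J7_CTL (log2 -2.25 ± 0.27, adjusted p 0.000361). Ebf2 did not pass the test between J7_MLKL and J0_MLKL (log2 0.22 ± 0.39, adjusted p 0.651), whose libraries overlapped, and its value was -0.066 without replicate 2 of J0_MLKL. The differentiation change was smaller than in CTL (interaction log2 -1.39 ± 0.40, edgeR adjusted p 0.00996), 1 call among 2 members tested where 65.3% of 3033 genes were called (39% higher and 26.3% lower). Against RIPK3-/- cells it was 6.05-fold lower in MLKL-/- cells at J0 (log2 -2.55 ± 0.23, adjusted p 6.31e-05, the 1 member tested where 66.5% of 3455 genes were called, 33.1% higher and 33.4% lower). At J7 it was 8.23-fold lower (log2 -2.86 ± 0.27, adjusted p 0.000102). Without replicate 2 of J0_MLKL the J0 differences were -0.70 against CTL and -2.28 against RIPK3-/- on the log2 scale. Without replicate 3 of J7_MLKL the J7 differences were -2.02 and -2.61, and without both libraries the interaction was -1.40, each still called.

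Ebf2 and Ripk3 lie on the same chromosome, 11.4 Mb apart. Of 173 genes tested on that side of Ripk3 between J0_RIPK3 and J0_CTL, 19 were called higher, Ebf2 among them, and 117 lower, with a median log2 fold change of -0.23 against -0.004 on other chromosomes. At J7 the same side had 7 of 183 genes higher, again with Ebf2, and 142 lower, with a median of -0.41 against 0.01 on other chromosomes. On the other side of Ripk3 the medians were -0.05 at J0 and -0.01 at J7. In J7_MLKL against J7_CTL the medians were -0.53 on the side of Ebf2, -0.79 on the other side and 0.26 on other chromosomes, and in J0_MLKL against J0_CTL they were -0.37, -0.58 and -0.02. A lower median on that side than on the other was thus seen in the groups titled RIPK3 at both stages and not in those titled MLKL. The relative Ebf1, which could be compared in J7_CTL and both RIPK3-/- groups, was 1.24-fold lower in J7_RIPK3 than in J7_CTL (log2 -0.30, edgeR adjusted p 5.33e-06), and Ebf2 reached 33.6 ± 1.19% of the Ebf1 FPKM there against 17.0 ± 0.778% in J7_CTL (SD, n = 3).

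Cox8b (ENSMUSG00000025488, chromosome 7, 140898945 to 140900446 on the minus strand, mm10) was read in every J7 library. It had 0 reads in all J0_CTL and J0_MLKL libraries, and 0, 3 and 2 reads in J0_RIPK3. In J7_CTL it had 3.15, 1.83 and 3.17 CPM (76, 45 and 85 reads), at least 80.6-fold higher than in J0_CTL taking 3 reads over the 3 libraries as the floor (edgeR adjusted p 2.46e-11). J7_RIPK3 libraries had 20.4, 17.5 and 17.0 CPM (489, 353 and 451 reads), above every other library of the series. Their pooled level was 6.71-fold above J7_CTL (log2 2.76 ± 0.14, edgeR adjusted p 1.96e-13). It was 312-fold above J0_RIPK3 (log2 8.14 ± 0.25, adjusted p 4.44e-18), and the J0_RIPK3 level rests on 5 reads. Leaving out 1 library gave 7.66 to 8.92 on the log2 scale, the extremes without replicate 1 and replicate 2 of J0_RIPK3. In this comparison 6 of 6 members and 97.8% of 11798 genes were called, 5 members and 49.3% of genes higher, 1 member and 48.5% lower.

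Cox8b was uneven across the J7_MLKL libraries. J7_MLKL libraries had 1.70, 1.29 and 9.08 CPM (44, 28 and 240 reads), so replicate 3 was above every J7_CTL library and the others were below the lowest of them. Against J7_CTL the log2 difference was 0.68 ± 0.75 (edgeR adjusted p 0.401). Without replicate 3 it turned to -0.78 and was called (adjusted p 0.0104). Replicate 3 also had the highest adipocyte marker sum of its group, 4338 CPM against 1745 and 2134, and the part of this in the Cox8b level was not tested. Against J0_MLKL, Cox8b was at least 109-fold higher (adjusted p 0.0114), the 1 call among 2 members tested where 66.7% of 3075 genes were called, 35.8% higher and 30.9% lower. Replicate 3 held 240 of the 312 reads, and without it the bound was 39.1-fold (adjusted p 0.000442). Against J7_RIPK3 it was 4.34-fold lower (log2 -1.98 ± 0.70, adjusted p 0.0322), but this call was lost (adjusted p 0.0635 to 0.0827) when replicate 1 or 2 of J7_MLKL or any single J7_RIPK3 library was left out. Without replicate 3 of J7_MLKL it was kept, at -3.45.

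Cox7a1 (ENSMUSG00000074218, chromosome 7, 30184144 to 30186078 on the plus strand, mm10) was listed in the 12 CTL and RIPK3-/- libraries. J0_CTL had 0.517, 0.446 and 0.323 CPM (18, 13 and 8 reads) and J7_CTL 1.74, 1.75 and 2.54 CPM (42, 43 and 68 reads), 4.60-fold higher (log2 2.15 ± 0.29, edgeR adjusted p 2.30e-07). From J0_RIPK3 to J7_RIPK3 the level went from 0.197, 0.261 and 0.352 CPM to 6.29, 5.25 and 5.29 CPM, a log2 change of 4.27 ± 0.25 (adjusted p 3.65e-13). No J7 library of a genotype overlapped its J0 libraries, and J0_CTL and J0_RIPK3 overlapped each other. The rise was steeper in RIPK3-/- than in CTL cells (interaction log2 2.15 ± 0.44, edgeR adjusted p 0.000266), and J7_RIPK3 ended 2.78-fold above J7_CTL (log2 1.49 ± 0.17, adjusted p 2.11e-07).

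The widely used isoforms were read in the same libraries. Between J7_RIPK3 and J7_CTL, Cox8a had a log2 difference of 0.00 (edgeR adjusted p 0.930) and Cox7a2 of 0.13 (adjusted p 0.0156). In FPKM, Cox8b rose from 0.770 ± 0.215% of Cox8a in J7_CTL to 5.22 ± 0.270% in J7_RIPK3 (SD, n = 3), and the libraries of the groups did not overlap. Cox7a1 stood at 3.04 ± 0.865% of Cox7a2 in J7_CTL and 7.74 ± 0.529% in J7_RIPK3, also without overlap. Since both isoforms are also used in muscle, 11 skeletal muscle markers were read beside them. Only Acta1, Tnnt3 and Des were listed, and Myod1, Myog, Myf5, Myf6, Myh3, Ckm, Tnni2 and Pax7 were in no table. The summed level of Acta1 and Des was 36.7 to 39.6 CPM in J7_CTL and 55.6 to 60.0 CPM in J7_RIPK3, where Des, an intermediate filament gene, was called higher (1.58-fold, log2 0.67, adjusted p 2.29e-10) and Acta1 had 3.87 against 4.36 CPM. The part of this in the Cox8b and Cox7a1 differences was not tested.

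**Figure D2:**
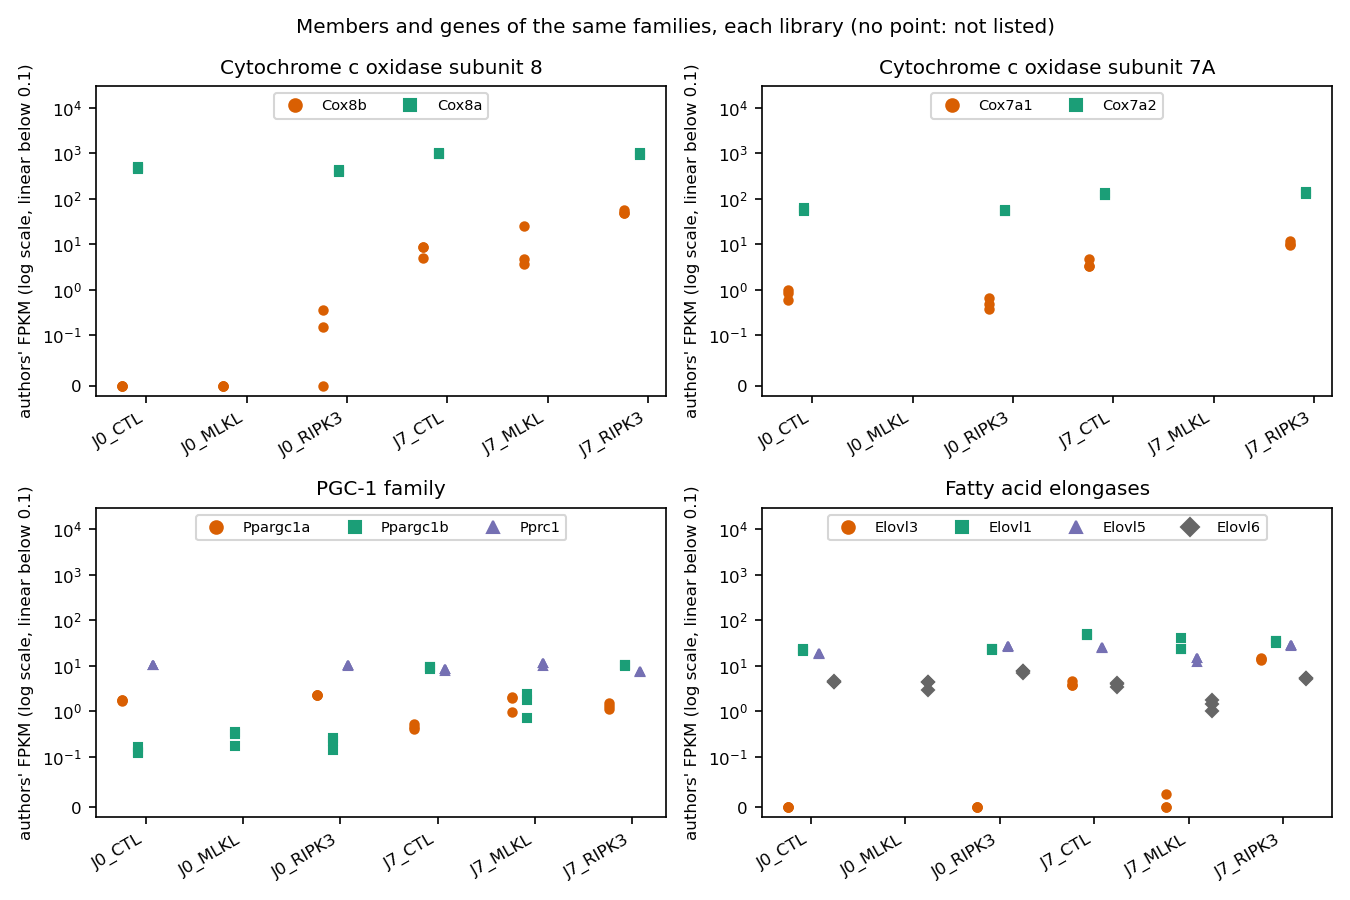
FPKM of members and of genes of the same families in every library, by group, on log axes that turn linear below 0.1 FPKM. A gene without points in a group was not listed there. Cox8b and Cox7a1 lie below Cox8a and Cox7a2 in the 4 groups where both were listed, at 5.22% and 7.74% of them in J7_RIPK3, and Ppargc1a and Ppargc1b change places between J0_CTL and J7_CTL.

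Cidea (ENSMUSG00000024526, chromosome 18, 67343564 to 67367794 on the plus strand, mm10) had the largest fold of the 6 members between J7_RIPK3 and J7_CTL. The 3 J0_CTL libraries held 1 read in all, and the J0_RIPK3 libraries 0. J7_CTL had 2.11, 2.44 and 2.83 CPM (51, 60 and 76 reads), a ratio of 219 to J0_CTL with an exact 95% counting interval of 38.9 to 8716 (edgeR adjusted p 3.50e-12). J7_RIPK3 had 70.6, 66.9 and 57.9 CPM (1695, 1350 and 1534 reads), 26.2-fold above J7_CTL (log2 4.73 ± 0.10, adjusted p 3.41e-20) and at least 1842-fold above J0_RIPK3 (adjusted p 4.35e-21). J7_MLKL libraries had 1, 1 and 2 reads, 45.8-fold below J7_CTL (log2 -5.29 ± 0.35, adjusted p 3.36e-05). Without replicate 3 of J7_MLKL this value was -5.65. None of the J7 groups overlapped another.

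The related droplet gene Cidec was far more abundant than Cidea. In FPKM, Cidea stood at 0.161 ± 0.0224% of Cidec in J7_CTL, 4.49 ± 0.254% in J7_RIPK3 and 0.0476 ± 0.00468% in J7_MLKL (SD, n = 3). The J7_MLKL ratio rests on only 1, 1 and 2 reads of Cidea. Cidec had a log2 difference of -0.07 (edgeR adjusted p 0.109) between J7_RIPK3 and J7_CTL, and it was 13.1-fold lower in J7_MLKL than in J7_CTL (log2 -3.62, adjusted p 0.000135).

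Elovl3 (ENSMUSG00000038754, chromosome 19, 46131897 to 46135307 on the plus strand, mm10) had 0 reads in all 6 J0_CTL and J0_RIPK3 libraries. J7_CTL had 5.47, 5.48 and 6.94 CPM (132, 135 and 186 reads), at least 177-fold higher than J0_CTL (edgeR adjusted p 5.95e-15). J7_RIPK3 had 22.4, 21.1 and 19.4 CPM, 3.49-fold above J7_CTL without overlap (log2 1.82 ± 0.10, adjusted p 1.04e-12). It was at least 594-fold above J0_RIPK3 (adjusted p 3.97e-18). A single read was found in the 3 J7_MLKL libraries, all of it in replicate 3. The ratio of J7_CTL to J7_MLKL was 444 with a 95% counting interval of 79.2 to 17563 (adjusted p 2.28e-05), and without replicate 3 Elovl3 had 0 reads in J7_MLKL. Other elongases were read beside it. Elovl6, which makes stearate, was 1.35-fold higher in J7_RIPK3 (log2 0.45, adjusted p 1.36e-05) and 2.81-fold lower in J7_MLKL (log2 -1.38, adjusted p 0.00110) than in J7_CTL. Elovl1, which makes very long chains, was 1.44-fold lower in J7_RIPK3 (log2 -0.50, adjusted p 1.34e-09). In FPKM, Elovl3 equalled 104 ± 14.97% of Elovl6 in J7_CTL and 269 ± 23.6% in J7_RIPK3.

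The 5 members listed in J7_MLKL did not all move one way against J7_CTL. Ppargc1a was called higher and Ebf2, Cidea and Elovl3 lower, where 94.9% of 7263 genes were called (48.5% higher and 46.4% lower), and Cox8b depended on replicate 3. Cidea and Elovl3 had 0 to 2 reads in each J7_MLKL library, in which all 10 adipocyte markers were read. Against J7_RIPK3, 4 of 5 members were called lower, where 86.8% of 6591 genes were called, 44.8% higher and 42% lower. Among these 4, Cidea was 1199-fold lower (log2 -9.94 ± 0.22, edgeR adjusted p 2.59e-06). Preadipocyte and fibroblast markers moved with this group, their sum being 6789 to 8903 CPM over 8 listed genes in J7_MLKL against 3332 to 3384 CPM over 10 in J7_CTL. The part of the marker levels in these differences was not tested.

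**Figure D3:**
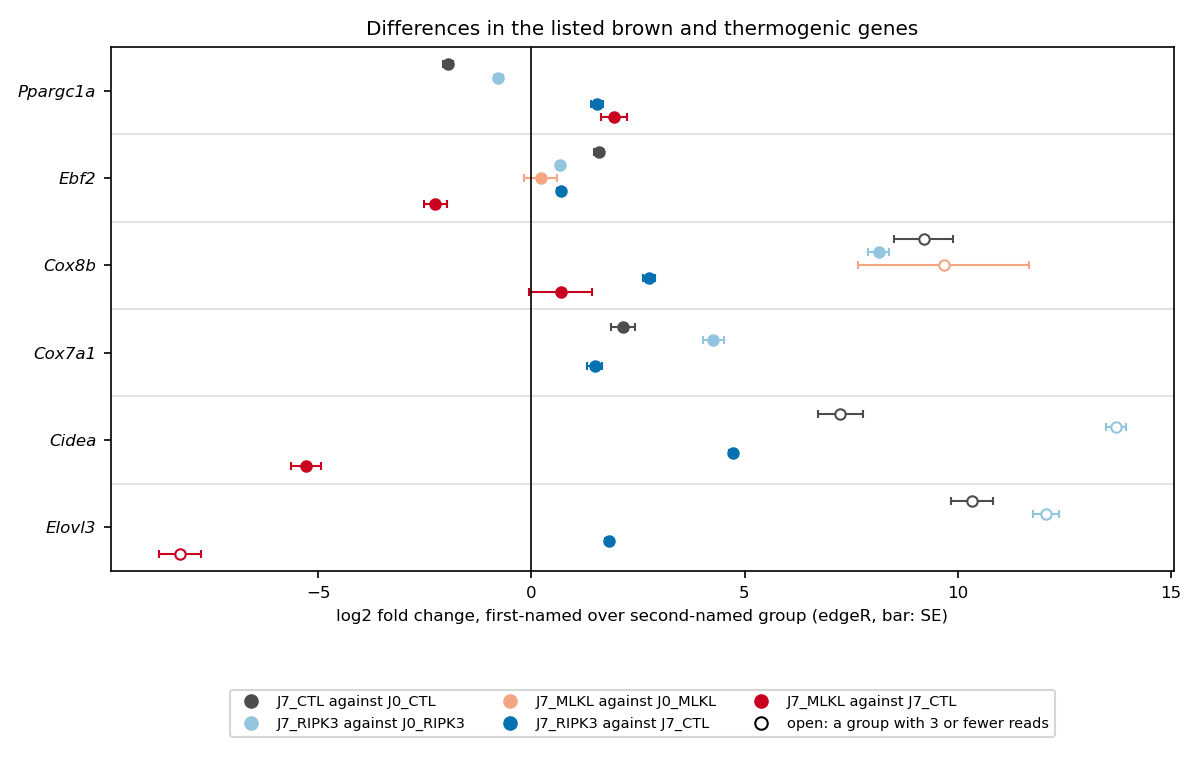
Log2 fold changes of the 6 listed members in 5 comparisons from edgeR, first-named over second-named group, with bars of 1 SE. Open symbols mark values where a group held 3 or fewer reads, whose size depends on the fit. All 6 values for J7_RIPK3 against J7_CTL lie above 0, from 0.69 for Ebf2 to 4.73 for Cidea, while J7_MLKL against J7_CTL runs from -8.25 for Elovl3 to 1.93 for Ppargc1a.

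Other genes of the thermogenic programme were read in lists chosen for their function. These lists overlap the adipocyte markers: Pparg and Cebpa are also regulators, Lipe is also an effector and Retn also a white marker. Between J7_RIPK3 and J7_CTL, thermogenic effectors and fuel supply had 12 genes higher and 1 lower of 18 tested, with a median log2 fold change of 0.27 against 0.00 over all genes. Over all genes tested, 29.6% were called higher and 29.5% lower. Acaa2, the last enzyme of mitochondrial fatty acid oxidation, rose 2.05-fold (log2 1.05), and the lipoprotein lipase Lpl 1.30-fold (log2 0.39). The calcium pump Atp2a2 was higher by less (log2 0.24). Repressors of the brown programme had 2 higher and 6 lower of 10, with a median of -0.29. Among them Tcf7l1 (log2 -0.66), Ncor1 (-0.30) and Nrip1 (-0.28) fell and Foxo1 (0.23) rose.

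Transcriptional regulators, adrenergic genes and white or beige markers split in direction in the same comparison. Of 18 thermogenic regulators tested, 8 were higher and 6 lower (median 0.08), with Cebpb (log2 0.28) and the oestrogen-related receptor Esrra (0.13) higher and Pparg (-0.40) and its partner Rxra (-0.12) lower. Adrenergic and cAMP signalling had 5 higher and 2 lower of 14 (median 0.03), with the protein kinase A subunits Prkaca (log2 0.45) and Prkar2b (0.50) higher and Mapk14 (-0.09) and Atf2 (-0.16) lower. White adipocyte markers had 2 higher and 3 lower of 7 (median -0.05), with angiotensinogen (Agt) lower (-0.68), and Nnmt (0.46) and resistin (Retn, 0.27) higher. Beige markers had 3 higher and 2 lower of 5 (median 0.27), and secreted brown fat factors 4 higher and 3 lower of 8 (median 0.39).

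Some genes of these lists, low-abundance ones among them, were singled out after their values were seen. Slc36a2, an amino acid transporter used as a brown and beige surface marker, was 7.82-fold higher in J7_RIPK3 than in J7_CTL (log2 2.98, edgeR adjusted p 2.71e-11). The hormone Fgf21 was 6.47-fold higher (log2 2.69, edgeR adjusted p 3.00e-08) and neuregulin 4 (Nrg4) 3.28-fold higher (log2 1.73, adjusted p 7.51e-12). Their lists split in direction, so these genes do not stand for them. Slc36a2 is 1 of the beige markers, of which 3 were higher and 2 lower of 5. Fgf21 and Nrg4 are secreted factors, of which 4 were higher and 3 lower of 8. The beta-3 adrenergic receptor Adrb3, at a mean of 38.4 against 19.96 CPM, was 1.93-fold higher (log2 0.96, adjusted p 9.11e-12). The proton channel Otop1 was 19.8-fold lower in J7_CTL than in J0_CTL, where its mean was 2.08 CPM. It was 14.4-fold higher in J7_RIPK3 than in J7_CTL (log2 3.82, edgeR adjusted p 1.81e-07), at a mean of 1.57 CPM. That fold rests on 108 reads against 8. Others, at low levels, went the opposite way. Ppara, a nuclear receptor of fatty acid oxidation, was 5.81-fold lower in J7_RIPK3 (log2 -2.50, adjusted p 4.24e-05), with 14 reads against 87. The beige marker Cited1 had 3 reads against 28 and the thioesterase Acot11 8 against 23, both too few to pass the filter for a test. Of the other uncoupling proteins, Ucp2 was 1.11-fold higher (log2 0.17, adjusted p 0.000202) and Ucp3 had a log2 difference of -0.11 (adjusted p 0.263).

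Between J7_MLKL and J7_CTL the effectors had 5 higher and 9 lower of 14 tested (median log2 -1.63 against 0.17 over all genes). Over all genes tested, 48.5% were called higher and 46.4% lower. Lpl fell 3.75-fold, and the lipases Pnpla2 (4.69-fold) and Lipe (5.98-fold) fell too. Regulators had 4 higher and 8 lower of 13 (median -0.60), with Pparg 6.86-fold and Cebpa 11.04-fold lower and the thyroid hormone receptor Thra 2.18-fold higher. Lipe, Pparg and Cebpa are also among the adipocyte markers, all of which were called lower here. Repressors had 2 higher and 6 lower of 9 (median -0.72), with Nrip1 4.08-fold lower and Twist1 4.02-fold higher. Adrenergic genes had 2 higher and 7 lower of 9 (median -1.13), white markers 1 higher and 5 lower of 7 (median -1.97), and secreted factors 5 higher and 3 lower of 8 (median 1.37), led by the guidance ligand Slit2, 41.3-fold higher. Beige markers had 1 higher and 1 lower of 3 (median -0.87), with Shox2 1.57-fold higher and the glycerol channel Aqp7 4.84-fold lower.

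**Figure D4:**
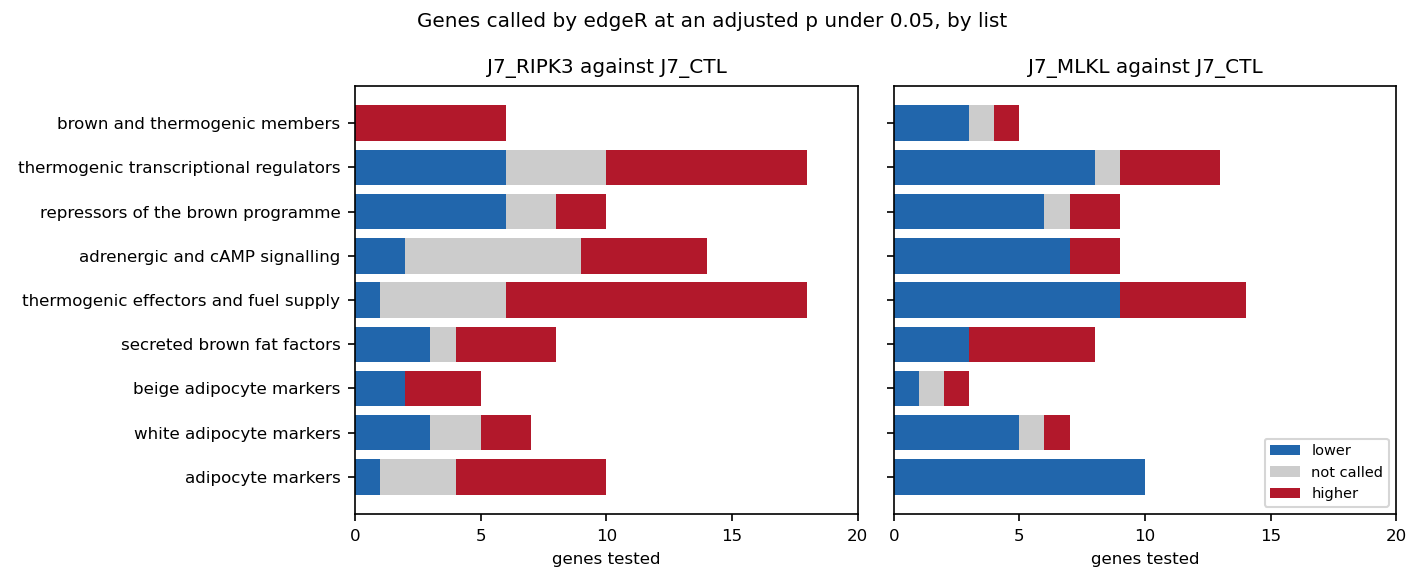
Numbers of genes called higher (red), lower (blue) or not called (grey) by edgeR among those tested in each list, for J7_RIPK3 (left) and J7_MLKL (right) against J7_CTL. Thermogenic effectors are 12 higher and 1 lower at left and 5 higher and 9 lower at right, and all 10 adipocyte markers are lower at right. Pparg, Cebpa, Lipe and Retn are counted in the adipocyte markers and in another list. Over all genes tested, 29.6% were higher and 29.5% lower at left, and 48.5% higher and 46.4% lower at right.

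During differentiation of control cells all 10 adipocyte markers were called higher, and the lists differed in how their calls split. Over all genes tested, 48.2% were called higher and 47.6% lower. Effectors had 14 higher and 6 lower of 20 (median log2 1.01 against 0.03 over all genes), with Lpl 30.5-fold, Pnpla2 90.1-fold and Lipe 57.8-fold higher. Regulators had 10 higher and 7 lower of 17 (median 0.57), with Thra 2.42-fold lower. Repressors had 8 higher and 3 lower of 11 (median 0.55), among them Nrip1 6.30-fold higher and Twist1 2.49-fold lower. Adrenergic genes had 7 higher and 4 lower of 12 (median 0.82), and white markers 7 higher and 1 lower of 8 (median 3.33). Beige markers had 3 higher and 2 lower of 5 (median 0.49) and secreted factors 3 higher and 4 lower of 7 (median -0.17). The beta-3 receptor Adrb3 went from 0 reads to 19.96 CPM, at least 590-fold higher.

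In the authors' deposited table of pathways, the KEGG pathway Thermogenesis had 210 listed genes in J7_CTL against J0_CTL, 157 up and 53 down. The authors' deposited table for J7_RIPK3 against J7_CTL had 104 such genes, 76 up and 28 down, and that for J7_MLKL against J7_CTL had 103, of which 36 were up and 67 down. The pathway had 320, 321 and 316 genes in the background of these 3 comparisons. Over the tested genes of the same 3 comparisons' tables, edgeR called 5768 higher and 5524 lower, 2730 and 2898, and 3441 and 3345. The pathway counts follow the authors' own test. They include Ppargc1a in all 3 comparisons, and Cox8b and Cox7a1 in the first 2.

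The genes whose levels ran most like each member were found by Pearson's r of log2(CPM + 0.5), over the libraries in which the member was listed, and are given without a test since libraries of a group share their condition. Closest to Cidea were Gys2, a glycogen synthase (r = 0.999), the oxygen-binding myoglobin gene Mb (0.996) and the glycogen phosphorylase Pygl (0.993), over 15 libraries and 5563 genes. Mb had 0.626 CPM in J7_CTL, 5.12 in J7_RIPK3 and 0.0280 in J7_MLKL on average. Closest to Cox8b over 18 libraries were Acsm5 (0.987), Cyp2f2 (0.974) and Cyp2e1 (0.970), and closest to Cox7a1 over 12 libraries were Acsm5, Zfp386 and Slc25a42 (0.991 each). Elovl3 ran with Tmem82, Hspa9 and Nup88 (0.996 each), Ppargc1a with Fbxo21 (0.980), L3hypdh (0.969) and Zfp932 (0.964), and Ebf2 with Csnk1a1 (0.970), Ino80c (0.966) and Spire1 (0.963). Among members, Cox7a1 had r = 0.987 with Cox8b, 0.984 with Elovl3 and 0.974 with Cidea over 12 libraries. Over 15 libraries Cidea and Elovl3 had r = 0.954, and Cox8b had 0.845 with Cidea and 0.811 with Elovl3. Ppargc1a had a negative r with each other member, from -0.58 with Elovl3 to -0.23 with Ebf2.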

How the data were processed

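RNA-seq of 18 libraries, 3 per group, was deposited as 7 comparison tables and their pathway tables. Per the submitters' processing notes, the build was mm10 and the tools included HISAT2, DESeq2, featureCounts 1.5.0-p3 and FastQC 0.11.9. Per the file headers, the deposited tables give raw read counts, the authors' normalised counts (signal) and the authors' FPKM per library, beside the authors' log2 fold change, p-value and adjusted p-value per gene. The deposited pathway tables give, in other columns, numbers of up and down genes. The authors' tables list only genes with an adjusted p under 0.05.

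Counts were joined by gene identifier. Library totals (20.2 to 36.9 M reads) were recovered from count, FPKM and length, since listed genes hold 90.0 to 98.4% of CTL and RIPK3-/- reads, 29.3 to 30.4% of J0_MLKL and 53.5 to 54.5% of J7_MLKL reads. CPM are counts scaled to that total. Strand-specific counting is not given in the sources used here, so overlapping genes cannot be separated. Per comparison, genes with counts in every group were tested with edgeR 4.0.16 in R 4.3.3 (filterByExpr, TMM, quasi-likelihood F test, Benjamini-Hochberg) after a check on simulated data. SE were derived from the F statistic. Cidea, Cox8b, Elovl3 and Cox7a1 did not pass the low-count filter in J0_RIPK3 against J0_CTL.

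Floors (3 reads over a group) and 95% intervals cover counting error only. Alternatives were DESeq2 1.42.0 and its size factors, library totals alone, the authors' size factors, a comparison's own table, other filters, a replicate block and leaving out libraries. Members and gene lists were chosen with earlier results of these data known. From each list the 4 called genes of highest mean CPM may be named. Some other names are marked as chosen afterwards. Elovl6, some paralogs that were not called and, in J7_CTL against J0_CTL, Adrb3 lie outside that rule without such a mark. Replicate numbers were not used to pair the libraries in the main tests. Only between J7_CTL and J0_CTL did each library correlate best with the one of its own number.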

Additional observations from a re-analysis of the deposited data

Results flagged for a closer look

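The change from J0 to J7 differed between a knockout and CTL, by the interaction term of edgeR's quasi-likelihood test, in 4 member results, with J7 groups named by title. For Ppargc1a the RIPK3-/- change exceeded that of CTL by 1.20 on the log2 scale, both groups falling. Cox7a1 differed by 2.15, both rising. For Ebf2 the RIPK3-/- value was -0.88, from a J0_RIPK3 level of 14.4 ± 0.795 CPM (SD, n = 3) against 4.80 ± 0.647 in J0_CTL. The MLKL-/- value of Ebf2 was -1.39.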

How the results depend on the processing

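Of 42 member results, 36 kept their call and direction in all alternatives run. A result that stayed uncalled counts as kept, and the 42 include the interactions of Cidea, Cox8b and Elovl3 that rest on few reads at J0. A gene removed by a filter in an alternative was left out there and not counted as changed. Without J7_MLKL replicate 3, Cox8b reversed against J7_CTL (-0.78) and in the MLKL-/- interaction (-0.94), and without that library and J0_MLKL replicate 2 the interaction was -0.94. Without J0_MLKL replicate 2, Ebf2 reversed to -0.066 in J7_MLKL against J0_MLKL. Leaving out 1 library at a time gave -0.78 to 1.10, -0.94 to 0.91 and -0.066 to 0.50 for these 3 results. With a mean of at least 50 counts, 3 of 6 members were called in J7_CTL against J0_CTL, since Cidea, Cox8b and Cox7a1 were no longer tested. The RIPK3-/- interaction of Cidea (edgeR adjusted p 0.0545) was called by DESeq2 (adjusted p 0.00273) and without J0_CTL replicate 2 (0.0442), J0_CTL replicate 3 (0.0466) or J7_RIPK3 replicate 3 (0.0418). It rests on 1 read at J0, as the Cox8b and Elovl3 interactions rest on 0 to 5, so none of these was read as a result. Scaling on library totals alone lowered the median of all genes by 0.10 in J7_MLKL against J7_CTL and 0.17 against J7_RIPK3. DESeq2 size factors lowered it by 0.31 in the MLKL-/- interaction, where the share of higher calls went from 59.8 to 48.8%. A replicate block changed no member call and moved the genes called in J7_MLKL against J0_MLKL from 2051 to 1734. Same-numbered libraries of J7_CTL and J0_CTL correlated best with each other, at r = 0.0158 to 0.0356 in their deviations. The preselected tables limit what could be seen: members without values in a group were not analysed there.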
